A study of Mus musculus with 12 samples.

Results

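A set of 10 genes linked to p53 signalling and growth arrest was followed in the livers of mice given silver nanoparticles by mouth: Cdkn1a, Mdm2, Ccng1, Bax, Btg2, Gadd45a, Gadd45b, Gadd45g, Sesn2 and Trp53inp1. They were chosen by name, and each was read from the probe set that named only that gene. Such a probe set was found for 9 of the 10 genes, out of 30062 genes on the arrays, and Bax was not analysed here. All 9 had 1 such probe set each, and all 9 passed the filter on low signal, a mean log2 signal above 3.93.

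RNA from 12 livers was measured, 1 array per mouse, in 3 groups of 4 mice with 2 females and 2 males in each. The first group received 20 nm silver particles coated with citrate (cit-AgNP), the second received 20 nm silver particles coated with polyvinylpyrrolidone (PVP-AgNP), and the control mice received water. Either particle was gavaged on 7 consecutive days, 4 mg of silver per kg each time, and livers were taken 24 h after the last gavage. Every mouse, controls included, was 3 months old and belonged to strain C57BL/6J -Oca2p-un/J, in which the pigmentation gene Oca2 has its pink-eyed unstable allele. No group received citrate or PVP without silver, so a coating and the silver under it cannot be told apart.

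The p53 protein is a transcription factor that is kept scarce in unstressed cells by MDM2, the ubiquitin ligase that marks it for degradation. DNA damage and other stresses free p53 from MDM2, and p53 then binds response elements near its target genes, among them Cdkn1a, whose product p21 blocks cyclin-dependent kinases and holds the cell cycle. Mdm2 and Ccng1 are targets that feed back on p53 itself, Bax drives cell death, and Btg2, the Gadd45 genes, Sesn2 and Trp53inp1 act in arrest, stress kinase signalling, nutrient sensing and autophagy. Several of these genes also answer to signals other than p53: in the liver, Cdkn1a, Gadd45b and Btg2 respond to feeding, hormones and growth signals.

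Promoter windows of Cdkn1a and Ccng1 are shown from RefSeq (GRCm38.p6) because both hold letters that match the p53 response element, and no other member's window did. The windows run from 250 bases before to 50 bases after an annotated start, 5′ to 3′ on the gene's own strand, and capitals mark the match to the p53 response element.
Cdkn1a, chr17:29090729-29091028, plus strand: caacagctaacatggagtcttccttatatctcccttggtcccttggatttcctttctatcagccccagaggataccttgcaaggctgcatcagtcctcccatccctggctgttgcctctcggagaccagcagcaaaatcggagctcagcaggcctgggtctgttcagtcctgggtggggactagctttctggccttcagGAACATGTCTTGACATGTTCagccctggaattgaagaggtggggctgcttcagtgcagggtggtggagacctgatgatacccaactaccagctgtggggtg
Ccng1, chr11:40755237-40755536, minus strand: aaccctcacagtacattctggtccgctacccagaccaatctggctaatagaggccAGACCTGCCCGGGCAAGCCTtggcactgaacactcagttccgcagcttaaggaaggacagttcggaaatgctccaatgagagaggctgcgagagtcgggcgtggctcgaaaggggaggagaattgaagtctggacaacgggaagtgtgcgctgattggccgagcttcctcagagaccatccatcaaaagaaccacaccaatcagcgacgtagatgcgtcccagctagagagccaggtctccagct
The search took 2 adjoining half-sites with at most 1 mismatch over the 20 bases, on both strands. The Cdkn1a match covered bases -51 to -32 from that start, which lies upstream of another annotated Cdkn1a start. The window of that downstream start, at chr17:29093519-29093818, held none. The Ccng1 match covered bases -195 to -176. Of 32851 promoter windows, 22 (0.067%) held such a match, and 2 of the 8 members with a window did. With a spacer of up to 13 bases between the half-sites, 206 windows (0.627%) held one, and the same 2 members did. Of the other motifs searched on both strands, the cyclic AMP response element TGACGTCA was found at bases -166 to -159 of Btg2 and in 1.79% of all windows. The E-box CACGTG was found in Gadd45b and Gadd45g and in 7.15% of all windows. Trp53inp1 had no window in the table used. A match of letters is a description of the sequence only.

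The arrays and mice were not alike in every respect. The area under the curve that separates exon from intron control probe sets, a measure of array quality, was 0.820 ± 0.00624 in cit-AgNP livers, 0.802 ± 0.0198 in PVP-AgNP livers and 0.824 ± 0.016 in control livers (SD, n = 4 each). PVP-AgNP replicates 1 and 4 had the lowest areas, 0.778 and 0.794. Among the members, control replicate 1, a male, was the lowest of the 12 mice in 3 genes, and PVP-AgNP replicate 1, a female, was the highest in 3 and the lowest in 2. Values without these mice are given beside several of the results below.

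The tissue read as liver in every sample: the 10 hepatocyte markers averaged 19.08 to 19.15 in cit-AgNP, 19.05 to 19.12 in PVP-AgNP and 19.06 to 19.13 in control livers on the log2 scale, close to the ceiling of the table. Of these markers, Alb, Apoa1, Ttr, Cyp2e1, Serpina1c, Apob and Fgb had the same value in every mouse. The hepatocyte average could therefore hardly differ between groups, and its likeness cannot show equal hepatocyte content. Hnf4a, which lay well below the ceiling, ran from 11.10 to 12.11 over all mice. The 10 Kupffer cell and macrophage markers averaged 7.90 to 9.16, 7.95 to 9.89 and 7.68 to 8.62 in the cit-AgNP, PVP-AgNP and control groups. Only PVP-AgNP replicate 2, a female, reached 9.89, and the next PVP-AgNP mouse was at 8.28. The neutrophil and monocyte list, 8 of its 10 genes above the filter, ran from 5.47 to 5.96, 5.54 to 6.89 and 4.61 to 6.00 in those groups. Control replicate 1 was the lowest and PVP-AgNP replicate 2 the highest, with the next PVP-AgNP mouse at 5.66. The 8 stellate cell markers averaged 6.82 to 7.14 in cit-AgNP livers, 6.47 to 6.99 in PVP-AgNP livers and 7.01 to 7.47 in control livers. Every PVP-AgNP mouse lay below every control mouse, but narrowly, with PVP-AgNP replicate 4 at 6.99 and control replicate 2 at 7.015. PVP-AgNP replicates 1 and 4 were the arrays of lowest quality area. Of single genes tested, 7.91% did not overlap between those groups. Endothelial markers (8 of 8 above the filter) overlapped, at 7.84 to 8.17, 7.48 to 8.0 and 7.72 to 8.07. Lymphocyte markers (7 of 10 above the filter) and cholangiocyte markers (4 of 6) lay between 4.27 and 4.76 in every mouse, near the filter. Of 6 erythroid markers 2 had a probe set and 1 passed the filter. The part of these lists in the results below was not tested. In whole liver, fewer cells of a type and less RNA per cell cannot be told apart.

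**Figure D1:**
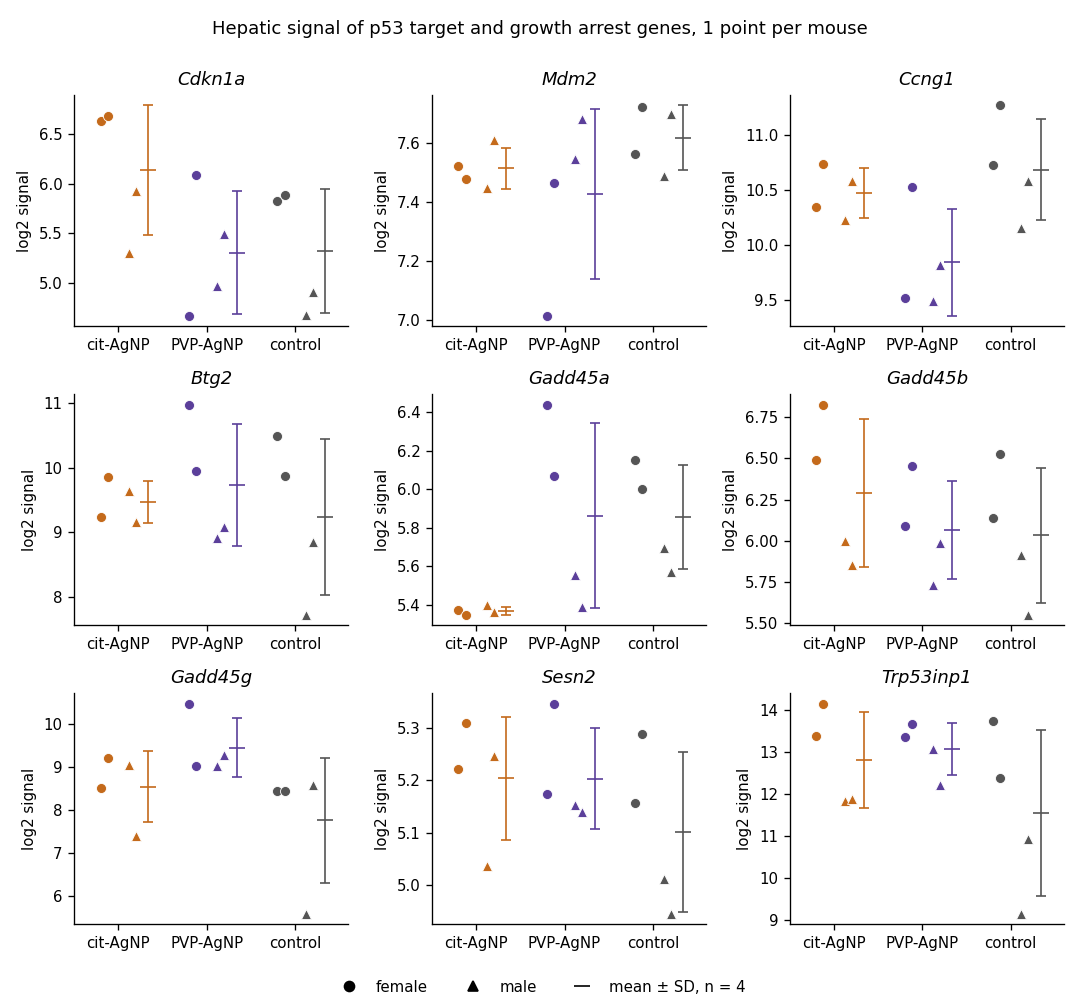
Log2 signal (vertical axis) of each of the 9 genes in each mouse, with circles for females and triangles for males, by group (horizontal axis, cit-AgNP, PVP-AgNP, control); bars give the mean and SD of the 4 mice. The cit-AgNP points of Gadd45a lie together below all control points, the control points of Gadd45g hold 1 male far below the rest, and those of Trp53inp1 are spread over 9.14 to 13.74 with both males lowest.

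Cdkn1a encodes p21, the cyclin-dependent kinase inhibitor that carries much of p53's arrest signal. Its log2 signal was 6.63 and 6.68 in the cit-AgNP females and 5.30 and 5.92 in the cit-AgNP males. The PVP-AgNP females had 4.67 and 6.08 and the PVP-AgNP males 4.97 and 5.49, while the control females had 5.83 and 5.89 and the control males 4.67 and 4.91. The groups overlapped when the sexes were pooled, but within each sex both cit-AgNP mice lay above both controls. The group levels were 6.13 ± 0.66 in cit-AgNP, 5.30 ± 0.62 in PVP-AgNP and 5.32 ± 0.63 in control livers (SD, n = 4 each). With sex in the model, the log2 difference between cit-AgNP and control livers was 0.81 ± 0.31 (SE), a 1.75-fold difference with a 95% confidence interval of 0.13 to 1.49 on the log2 scale. It did not pass the test over all genes (limma, adjusted p = 0.626). Between PVP-AgNP and control livers the difference was -0.020 ± 0.31 (SE), with an interval of -0.70 to 0.66 that leaves room for a change of either sign.

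Btg2 encodes an antiproliferative protein that binds the CCR4-NOT deadenylase and slows entry into the cell cycle. Its signal was 9.24, 9.85, 9.63 and 9.16 in cit-AgNP replicates 1 to 4, and 10.98, 9.95, 8.91 and 9.09 in PVP-AgNP replicates 1 to 4. Control replicates 1 to 4 had 7.72, 10.49, 8.85 and 9.88. The cit-AgNP mice sat close together, with an SD of 0.33, while the PVP-AgNP mice (SD 0.95) and the control mice (SD 1.21) were spread over far more. The log2 difference from control was 0.24 ± 0.41 (SE) for cit-AgNP and 0.50 ± 0.41 (SE) for PVP-AgNP livers, with adjusted p = 1.0 and 0.493 in limma. Control replicate 1 weighed on both: without it they were -0.11 and 0.15. PVP-AgNP replicate 1, the array of lowest quality area, was the highest of all mice. Without PVP-AgNP replicates 1 and 4 the difference for PVP-AgNP was 0.20 ± 0.50 (SE). With the quality area in the model it was -0.069 ± 0.40 (SE).

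Mdm2, the ubiquitin ligase that limits p53 and is itself a p53 target, showed little spread. Its signal was 7.52, 7.48, 7.45 and 7.61 in the cit-AgNP mice, 7.02, 7.46, 7.55 and 7.68 in the PVP-AgNP mice, and 7.49, 7.56, 7.70 and 7.72 in the control mice. Only PVP-AgNP replicate 1, the array of lowest quality area, stood below the others. The log2 difference from control was -0.10 ± 0.13 (SE) in cit-AgNP livers, with a 95% interval of -0.39 to 0.18 and adjusted p = 1.0 in limma, and it ran from -0.17 to -0.043 with 1 mouse left out. In PVP-AgNP livers it was -0.19 ± 0.13 (SE), with an interval of -0.47 to 0.093 and adjusted p = 0.405, and -0.058 without PVP-AgNP replicate 1. Both intervals hold 0 and leave room for a change of either sign. With the quality area in the model the difference in PVP-AgNP livers was -0.056 ± 0.14 (SE).

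Ccng1 encodes cyclin G1, which recruits the phosphatase PP2A to MDM2 and is a p53 target in many tissues. The signal was 10.35, 10.74, 10.22 and 10.58 in the cit-AgNP mice, 9.52, 10.53, 9.49 and 9.82 in the PVP-AgNP mice, and 10.16, 10.73, 10.58 and 11.27 in the control mice. Within each sex both PVP-AgNP mice lay below both controls. The log2 difference between PVP-AgNP and control livers was -0.84 ± 0.24 (SE), 0.557 of the control level, with a 95% interval of -1.38 to -0.31. This was the smallest adjusted p of any member in that comparison, 0.141 in limma, and it did not pass. It was -0.67 with adjusted p = 0.480 without PVP-AgNP replicates 1 and 4, the arrays of lowest quality area. In cit-AgNP livers the difference from control was -0.21 ± 0.24 (SE), with adjusted p = 0.999 in limma. It was -0.34 without control replicate 1 and -0.063 without control replicate 4.

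The 3 GADD45 proteins are small, closely related stress sensors that bind PCNA and CDK1 and activate the kinase MAP3K4, which leads to p38 and JNK. Gadd45a, the member of the family with the best known p53 element, had 5.37, 5.35, 5.40 and 5.36 in the cit-AgNP mice, an SD of 0.0207. The PVP-AgNP mice had 6.44, 6.07, 5.56 and 5.39, and the control mice 5.69, 6.15, 5.57 and 6.00. All 4 cit-AgNP values lay below all 4 control values, while the PVP-AgNP values spread across both groups. The log2 difference between cit-AgNP and control livers was -0.49 ± 0.15 (SE), 0.714 of the control level, with a 95% interval of -0.82 to -0.15. It did not pass over all genes (limma, adjusted p = 0.514). For PVP-AgNP it was 0.0076 ± 0.15 (SE), a sign that turned under 2 other scalings of the arrays.

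Gadd45b, which in the liver is also induced by growth and inflammatory signals, had 6.49, 6.83, 6.00 and 5.85 in the cit-AgNP mice, 6.09, 6.45, 5.73 and 5.98 in the PVP-AgNP mice, and 5.91, 6.14, 5.55 and 6.53 in the control mice. The groups overlapped, and in each group both females lay above both males. The log2 difference from control was 0.26 ± 0.14 (SE) for cit-AgNP, with adjusted p = 0.851 in limma, and 0.031 ± 0.14 (SE) for PVP-AgNP, with adjusted p = 0.917 and a sign that the same 2 scalings turned.

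Gadd45g had 8.52, 9.21, 9.04 and 7.39 in the cit-AgNP mice and 10.47, 9.03, 9.02 and 9.27 in the PVP-AgNP mice. The control mice had 5.59, 8.45, 8.57 and 8.43, of which the first, control replicate 1, stood far below the other 3. Every PVP-AgNP mouse was above every control mouse. The log2 difference between PVP-AgNP and control livers was 1.69 ± 0.60 (SE), a 3.22-fold difference, with a 95% interval of 0.35 to 3.03 and adjusted p = 0.184 in limma. It was 1.04 without control replicate 1 and 2.16 without control replicate 3. For cit-AgNP it was 0.78 ± 0.60 (SE), with adjusted p = 0.951, and 0.13 without control replicate 1. The neutrophil and monocyte markers were also at their lowest in control replicate 1; their part in the difference was not tested.

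Sesn2 encodes a leucine sensor that restrains the growth kinase complex mTORC1 through GATOR2, and it is induced by both p53 and ATF4. It varied least of the 9 genes: its signal was 5.22, 5.31, 5.04 and 5.25 in the cit-AgNP mice, 5.17, 5.35, 5.15 and 5.14 in the PVP-AgNP mice, and 5.01, 5.16, 4.95 and 5.29 in the control mice. The log2 differences from control were 0.10 ± 0.069 (SE) for either coating, each with a 95% interval of -0.050 to 0.25. Neither passed, with adjusted p = 0.916 for cit-AgNP and 0.406 for PVP-AgNP in limma. With each array centred on its median, the difference for PVP-AgNP was 0.0036.

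Trp53inp1 encodes a p53-induced nuclear protein that also binds autophagosome proteins. Its signal was 13.38, 14.16, 11.82 and 11.88 in the cit-AgNP mice, 13.36, 13.66, 13.07 and 12.22 in the PVP-AgNP mice, and 9.14, 13.74, 10.92 and 12.38 in the control mice. The control mice were the most spread, with an SD of 1.97 against 1.15 in cit-AgNP and 0.62 in PVP-AgNP livers, and control replicate 1 was again the lowest of all 12. Both control males, at 9.14 and 10.92, lay below all 4 treated males. The log2 difference from control was 1.26 ± 0.52 (SE) for cit-AgNP and 1.53 ± 0.52 (SE) for PVP-AgNP, 2.40-fold and 2.89-fold, with 95% intervals of 0.10 to 2.43 and 0.37 to 2.70. Neither passed (limma, adjusted p = 0.712 and 0.177). Without control replicate 1 they were 0.73 and 0.99, and without control replicate 2, a female, 1.72 and 1.99.

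**Figure D2:**
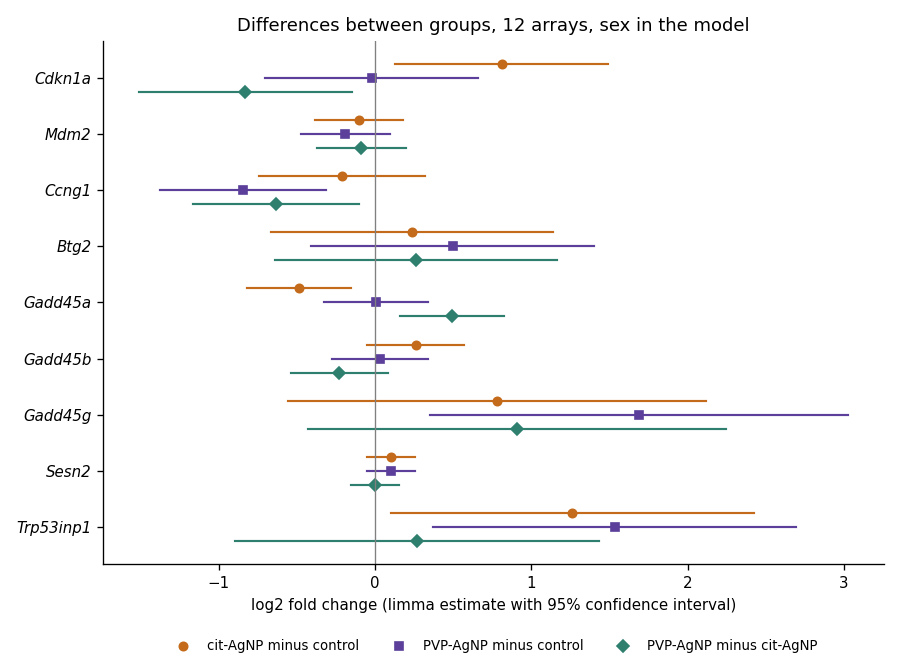
Log2 fold changes (horizontal axis) of the 9 genes with 95% confidence intervals from limma, for cit-AgNP minus control (circles), PVP-AgNP minus control (squares) and PVP-AgNP minus cit-AgNP (diamonds). The intervals of Gadd45g and Trp53inp1 are the widest and those of Sesn2 the narrowest; none of the differences passed over all genes tested.

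No member passed in either comparison with control at an adjusted p under 0.05. In cit-AgNP against control livers 0 of 9 passed, where 0.005% of the 19987 genes tested did, which is 1 gene. At an unadjusted p under 0.05, 3 of 9 members were reached, Cdkn1a and Trp53inp1 higher and Gadd45a lower, against 6.57% of all genes. The count was 1 without control replicate 1 (Gadd45a), where 5.69% of all genes reached that p. It was also 1 without cit-AgNP replicate 2 or cit-AgNP replicate 4, fits whose shares over all genes are not given here. The groups did not overlap in 1 member, Gadd45a, against 4.3% of all genes. Within both sexes, in the same direction, they did not overlap in 2, Cdkn1a and Gadd45a, against 8.68%. The median log2 difference of the 9 genes was 0.24, against 0.00043 over all genes tested.

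In PVP-AgNP against control livers 0 of 9 members passed, where 8 genes, 0.04% of those tested, did. An unadjusted p under 0.05 was reached by 3 of 9, Gadd45g and Trp53inp1 higher and Ccng1 lower, against 20.3% of all genes, and by 2, Ccng1 and Trp53inp1, without PVP-AgNP replicates 1 and 4, where 9.7% of all genes reached it. The groups did not overlap in 1 member, Gadd45g, against 7.91% of all genes. Within both sexes they did not overlap in 2, Ccng1 and Gadd45g, against 14.4%. The median was 0.031, against -0.0023 over all genes. The comparisons of both coatings share the 4 control mice. Side by side, Trp53inp1 was at 1.26 with cit-AgNP and 1.53 with PVP-AgNP, Gadd45g at 0.78 and 1.69, Cdkn1a at 0.81 and -0.020, and Ccng1 at -0.21 and -0.84.

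The particles compared directly differ in their coating, a small charged molecule in one and a neutral polymer in the other, at the same size, dose and time. Of the 9 members 0 passed in PVP-AgNP against cit-AgNP livers, where 0.0% of all genes did. The 9 comparisons had adjusted p-values from 0.271 to 1.0 over all genes tested. An unadjusted p under 0.05 was reached by 3 members, against 14.0% of all genes. It was reached by 1 without cit-AgNP replicate 2 or 4, fits whose shares over all genes are not given here. Of the 3, Gadd45a was the one higher with PVP, by 0.49 ± 0.15 on the log2 scale (SE, 95% interval 0.16 to 0.83). Cdkn1a was lower with PVP, at -0.83 ± 0.31 (SE, interval -1.51 to -0.15), and -0.45 without PVP-AgNP replicate 1. Ccng1 was at -0.63 ± 0.24 (SE, interval -1.17 to -0.10). With the array quality area in the model Gadd45a was at 0.36 ± 0.16, Cdkn1a at -0.55 ± 0.32 and Ccng1 at -0.41 ± 0.24 (SE). Without PVP-AgNP replicates 1 and 4, the arrays of lowest area, they were at 0.44 ± 0.13, -0.61 ± 0.15 and -0.46 ± 0.26 (SE). Mdm2 was at -0.087, with an interval of -0.37 to 0.20, and Sesn2 at -0.00038, with an interval of -0.15 to 0.15. The interval of Trp53inp1, -0.89 to 1.43, is wide enough to hold large differences of either sign. Groups did not overlap in 0 of 9 members, against 7.2% of all genes.

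**Figure D3:**
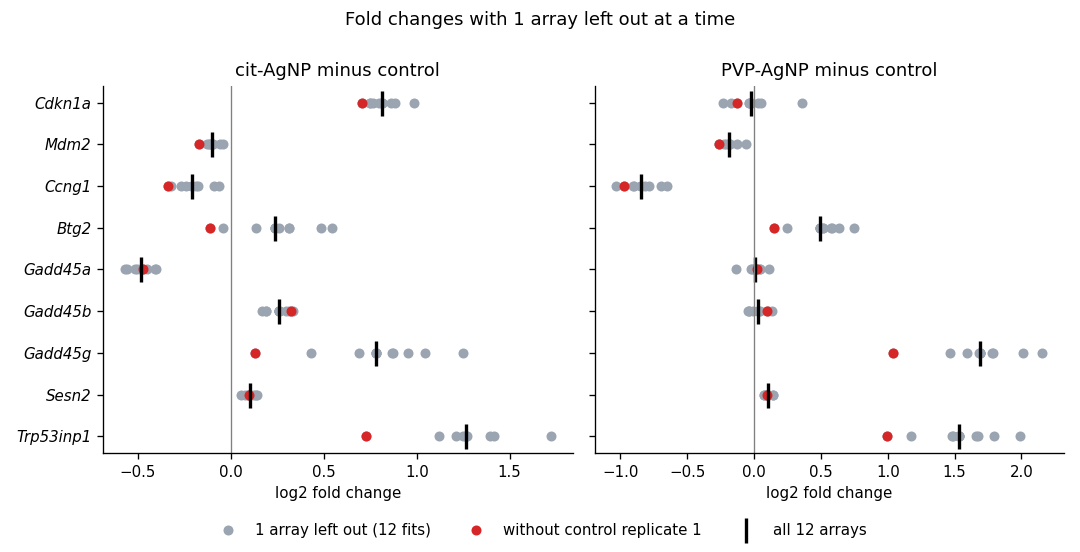
Log2 fold change (horizontal axis) of each gene against control for cit-AgNP (left panel) and PVP-AgNP (right panel), with all 12 arrays (black bar), with 1 array left out at a time (grey points, 12 fits) and without control replicate 1 (red). The red points of Gadd45g and Trp53inp1 are the lowest of their rows in both panels.

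The members differed widely in how much they varied between mice. The range over the 12 mice was 5.02 log2 units for Trp53inp1, 4.88 for Gadd45g, 3.25 for Btg2 and 2.02 for Cdkn1a, against a median of 0.71 over the genes tested. The spread left after group and sex put Gadd45g above 99.5%, Trp53inp1 above 99.0%, Btg2 above 97.5% and Cdkn1a above 93.9% of those genes. Mdm2 lay near the middle, above 48.4%, and Sesn2 above 11.0%. Gadd45g and Trp53inp1, which had the largest log2 differences between PVP-AgNP and control livers, were also the 2 of largest spread.

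**Figure D4:**
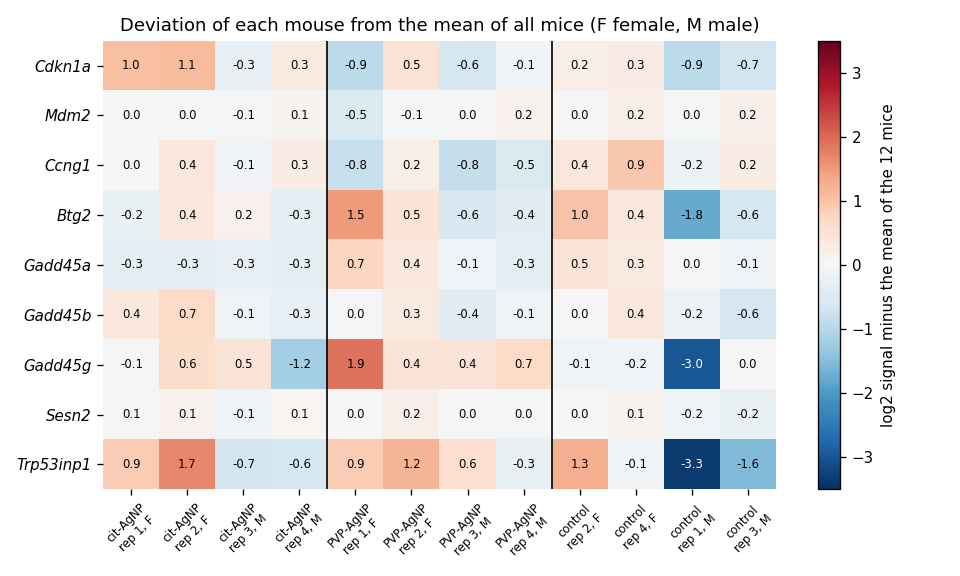
Heat map of each mouse's log2 signal minus the mean of the 12 mice for each of the 9 genes (rows), with mice in columns by group and sex; red is above and blue below the mean. Control replicate 1 is the deepest blue in Gadd45g and Trp53inp1, and PVP-AgNP replicate 1 is high in Gadd45g, Btg2 and Gadd45a but low in Cdkn1a and Mdm2.

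Sex was balanced over the groups, and it was the only comparison run in which members passed. In females against males 2 of 9 members passed, Gadd45b and Trp53inp1, both higher in females, where 2.18% of all genes tested did, in either direction. Gadd45b was 6.42 ± 0.27 in females and 5.84 ± 0.17 in males (SD, n = 6 each), and the lowest female, 6.09, was above the highest male, 6.00; such a gap, with females above, was seen in 0.906% of all genes. The log2 difference was 0.58 ± 0.11 (SE), with adjusted p = 0.0277 in limma. Trp53inp1 was 13.45 ± 0.60 in females and 11.51 ± 1.35 in males (SD, n = 6 each), from 12.38 to 14.16 and from 9.14 to 13.07, which overlap. It rose by 1.94 ± 0.43 (SE) in females, with adjusted p = 0.0476.

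Both calls depended on the processing and on which mice were included. With each array centred on its median Gadd45b had an adjusted p = 0.0586 in limma, and with no filter on low signal Trp53inp1 had 0.0621. With the replicate number as a block both calls were lost, at adjusted p = 0.461 for Gadd45b and 0.173 for Trp53inp1 in limma. The numbers do not pair the mice. All mice of replicate 2 were female and all of replicate 3 male, so that block overlaps the sex term. Gadd45b kept its call in 4 of the 12 fits that left out 1 mouse each: those without control replicate 1, control replicate 2, PVP-AgNP replicate 1 or PVP-AgNP replicate 4. In the other 8 its adjusted p lay at or below 0.0728 and its log2 difference at or above 0.52. Trp53inp1 kept its call in 3, those without control replicate 2, PVP-AgNP replicate 1 or PVP-AgNP replicate 3, and its adjusted p reached 0.118 without cit-AgNP replicate 2. Cdkn1a, at 0.75 ± 0.25 (SE) and adjusted p = 0.178 over all mice, was at 1.01 with adjusted p = 0.00481 without PVP-AgNP replicate 1, the female of lowest quality area. Without both PVP-AgNP arrays of lowest area, Cdkn1a (1.07, adjusted p = 0.00392) and Gadd45b (0.68, adjusted p = 0.026) passed, and Trp53inp1 (2.10, adjusted p = 0.0891) did not.

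An unadjusted p under 0.05 was reached by 6 of 9 members, all higher in females, against 6.36% of all genes in that direction. These were Cdkn1a, Btg2, Gadd45a, Gadd45b, Sesn2 and Trp53inp1. Btg2 was at 1.17 ± 0.33 (SE, adjusted p = 0.114), Gadd45a at 0.40 ± 0.12 (SE, adjusted p = 0.137) and Sesn2 at 0.16 ± 0.056 (SE, adjusted p = 0.204). The difference was above 0 in 8 of 9 members, Mdm2 being the exception at -0.12 ± 0.10 (SE), against 42.7% of all genes. The median was 0.58, against -0.024 over all genes. The Kupffer cell and macrophage markers averaged 7.68 to 9.89 in females and 7.83 to 8.16 in males, and the neutrophil and monocyte markers 5.57 to 6.89 and 4.61 to 5.76. Both overlapped between the sexes, and PVP-AgNP replicate 2, a female, was the highest in both. Alas2, which starts heme synthesis in red cell precursors and was the 1 erythroid marker above the filter, ran from 7.37 to 8.88 in females and from 10.28 to 11.36 in males, without overlap. The part of these markers in the sex difference was not tested.

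**Figure D5:**
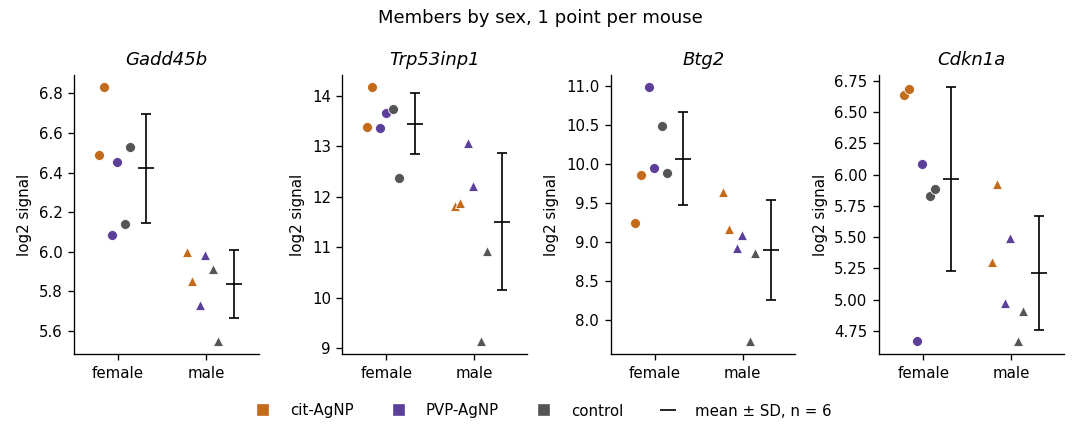
Log2 signal (vertical axis) of Gadd45b, Trp53inp1, Btg2 and Cdkn1a in females and males (horizontal axis), 1 point per mouse coloured by group, with the mean and SD of 6 mice. All female points of Gadd45b lie above all male points, and in the other 3 genes the sexes overlap.

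Whether a coating acted differently in females and males was asked with the effect in females minus the effect in males, from 2 mice per group and sex. For cit-AgNP 0 of 9 members passed, where 0.0% of genes did. An unadjusted p under 0.05 was reached by 2 of 9 members, against 2.45% of genes. Btg2 was at -1.75 ± 0.66 (SE): relative to controls of the same sex, cit-AgNP females were at -0.64 and cit-AgNP males at 1.11. Without control replicate 1 the Btg2 value was -1.18. Gadd45a was at -0.46 ± 0.18 (SE), with cit-AgNP females at -0.72 and males at -0.25, so it was below control in both sexes. Both had an adjusted p = 1.0 in limma. The count of 2 was 0 without control replicate 2, cit-AgNP replicate 1 or cit-AgNP replicate 3. It was 1 without control replicate 1, cit-AgNP replicate 2 or cit-AgNP replicate 4. The shares over all genes in these fits are not given here.

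For PVP-AgNP 0 of 9 passed, where 0.0% of genes did, and 1 of 9, Trp53inp1, reached an unadjusted p under 0.05, against 3.62% of genes. It was at -2.16 ± 0.90 (SE, adjusted p = 1.0), with PVP-AgNP females at 0.45 and PVP-AgNP males at 2.61 relative to controls of the same sex. The control males, whose Trp53inp1 signal was 9.14 and 10.92, are the base of that male value. The difference between the sexes in the effect on Trp53inp1 was -1.27 without control replicate 1 and -3.05 without control replicate 3. The count of 1 was 0 without control replicate 1 or 2, cit-AgNP replicate 3 or 4, or PVP-AgNP replicate 1 or 3. It was 3 without PVP-AgNP replicate 2. For these fits too the shares over all genes are not given here. Within females or males alone, 0 of 9 members passed for either coating by limma, where 0.0% of genes did. At an unadjusted p under 0.05 cit-AgNP gave 1 of 9 members in females, where 3.99% of all genes reached it, and 2 of 9 in males, where 5.17% did. PVP-AgNP gave 2 of 9 in females, where 13% of all genes reached it, and 1 of 9 in males, where 8.02% did.

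The genes around the members were read from 9 lists of the same pathways, described by counts and medians. Over all genes tested, 6.57% reached an unadjusted p under 0.05 with cit-AgNP and 20.3% with PVP-AgNP, with medians of 0.00043 and -0.0023. No gene on the 9 lists passed in a comparison with control, so all values below are of genes that did not. Among the genes named below, Cdkn2a, Chek1, Gas1, Ccne1, Ccnb2, Bad, Trib3 and Phgdh had group means of only 4.09 to 4.64. These means lie near the filter on low signal, so the small differences of these genes rest on weak signals. Of 12 tested genes of p53 and its regulators, 0 reached an unadjusted p under 0.05 with cit-AgNP, where 6.57% of all genes did, and 3 with PVP-AgNP, where 20.3% did. Their medians were -0.026 with cit-AgNP and -0.056 with PVP-AgNP. With PVP-AgNP the 3 were Ppm1d, a phosphatase that switches p53 off, at -0.26 ± 0.094 (SE), Cdkn2a, whose ARF product restrains MDM2, at 0.22 ± 0.083, and the checkpoint kinase Chek1 at 0.17 ± 0.074. The smallest p with cit-AgNP belonged to Rchy1 (-0.14), Cdkn2a (0.14) and Mdm4 (0.20).

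Of 31 other p53 targets, 4 reached an unadjusted p under 0.05 with cit-AgNP, 1 higher and 3 lower, and 5 with PVP-AgNP, 1 higher and 4 lower, against 6.57% and 20.3% of all genes. Their medians were -0.062 and -0.037. With cit-AgNP, Plk2, a polo-like kinase, was at -0.73 ± 0.24 (SE), Ddit4, an inhibitor of mTORC1 that also responds to hypoxia and glucocorticoids, at 1.08 ± 0.39, and Polk, a translesion DNA polymerase, at -0.20 ± 0.079. With PVP-AgNP, Trp53i11 was at -0.61 ± 0.14 (SE), Sulf2, a heparan sulfatase, at -0.66 ± 0.18, and Rps27l, a ribosomal protein homologue, at -0.39 ± 0.12. The adjusted p of Trp53i11, 0.0952 in limma, was the smallest among the genes named from these lists. More of the other p53 targets lay below 0 than above it with either coating. Above 0 were 7 of 31 with cit-AgNP and 11 of 31 with PVP-AgNP, against 50.1% and 49.3% of all genes. With cit-AgNP it was again 7 without control replicate 1 and with arrays centred on the median. With PVP-AgNP it was 15 without PVP-AgNP replicates 1 and 4, and 7 with arrays centred, where 30.9% of all genes were above 0.

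Among 12 tested CDK inhibitors and BTG family genes, 1 reached an unadjusted p under 0.05 with cit-AgNP, the growth arrest gene Gas1 at -0.30 ± 0.096 (SE), and 2 with PVP-AgNP, Rbl2 of the retinoblastoma family at -0.43 ± 0.12 and Cdkn2a. Rb1 (-0.23) was next with cit-AgNP, and Tob1, a relative of Btg2, at -0.66 with PVP-AgNP. Cell division genes, which p21 holds down, gave 1 of 21 with cit-AgNP, Ccne1 at 0.27 ± 0.072 (SE), and 5 of 21 with PVP-AgNP, where 20.3% of all genes reached that p. Those 5 were 3 higher and 2 lower. Centring the arrays turned the split to 0 higher and 4 lower, with a median of -0.090, where 4.17% and 17.5% of all genes were. Among the 5 were the proliferation marker Mki67 at 0.41 ± 0.15, Ccne1 at 0.21 ± 0.072 and Cdk4 at -0.36 ± 0.13. Ccnb2 (-0.18) and Mcm4 (-0.15) followed with cit-AgNP. The medians were -0.091 and -0.11 for the inhibitors and -0.039 and 0.0085 for the cell division genes, with cit-AgNP and PVP-AgNP in that order.

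The BCL2 family, to which Bax belongs, gave 3 of 17 at that p with cit-AgNP and 4 of 17 with PVP-AgNP. The shares of all genes were 6.57% and 20.3%, and the medians of the list were 0.0041 and -0.0023. Without control replicate 1 it gave 1 of 17 and 2 of 17, where 5.69% and 17.7% of all genes reached that p. The death effector Bak1 was at -0.47 ± 0.14 (SE) with PVP-AgNP, Bcl2l13 at -0.58 ± 0.24 and Bad at 0.14 ± 0.051. With cit-AgNP, Bmf was at -0.23 ± 0.080, Bad at 0.14 ± 0.051 and Bik at -0.27 ± 0.11. The kinases downstream of the GADD45 proteins gave 0 of 10 with cit-AgNP, with a median of 2.1e-05, and 4 of 10 with PVP-AgNP, where 20.3% of all genes reached that p, with a median of -0.094. The p38 kinase Mapk14 was at -0.46 ± 0.16 (SE), the JNK Mapk9 at -0.34 ± 0.12 and the p38 activator Map2k3 at -0.60 ± 0.22 with PVP-AgNP. With cit-AgNP, Map3k5 was at 0.45, Mapk9 at -0.17 and Mapk14 at -0.16.

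Immediate early genes, which share many inducers with Btg2 and Gadd45b, gave 2 of 15 with either coating, against 6.57% of all genes with cit-AgNP and 20.3% with PVP-AgNP, with medians of -0.033 and 0.096. All were higher with all 12 arrays as deposited. With PVP-AgNP the split was 1 higher and 3 lower with the quality area in the model, where 4.05% and 6.67% of all genes were. With arrays centred it was 2 higher and 1 lower, with a median of -0.0029, where 4.17% and 17.5% of all genes were. The AP-1 subunit Fosl2 was at 0.48 ± 0.18 (SE) with cit-AgNP and 0.59 ± 0.18 with PVP-AgNP. Klf4 was at 0.21 ± 0.096 with cit-AgNP and Fosb at 0.55 ± 0.20 with PVP-AgNP, and beside them Jun was at -1.05 ± 0.52 with cit-AgNP and Dusp1 at -0.98 ± 0.48 with PVP-AgNP. Without control replicate 1, 0 were higher and 2 lower with cit-AgNP, where 2.15% and 3.55% of all genes were, and the median was -0.24. Integrated stress response genes, the other route to Sesn2, gave 2 of 13 with cit-AgNP, Atf5 at -0.51 ± 0.16 and Ddit4, and 1 of 13 with PVP-AgNP, Vldlr at -0.61 ± 0.26. Their medians were 0.029 and 0.049, with Trib3 at -0.15 with cit-AgNP, and Phgdh at 0.23 and Chac1 at 0.26 with PVP-AgNP.

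Among the 9 lists, that of sestrins and mTORC1 amino acid sensing genes was the most one-sided with PVP-AgNP. With PVP-AgNP 0 of 17 were above 0, 8 reached an unadjusted p under 0.05, all lower, and the median was -0.34, where 12.3% of all genes reached that p lower and their median was -0.0023. Sesn3, a relative of Sesn2, was 8.41 ± 0.29 in PVP-AgNP and 9.20 ± 0.46 in control livers, a log2 difference of -0.79 ± 0.23 (SE, adjusted p = 0.140 in limma). Wdr24 of GATOR2 was at -0.29 ± 0.082 and Tsc2, which with Tsc1 holds mTORC1 down, at -0.39 ± 0.12. With cit-AgNP 0 of 17 reached an unadjusted p under 0.05 and the median was -0.075, with Depdc5 at -0.16, Tsc2 at -0.19 and Tsc1 at -0.12. Between PVP-AgNP and cit-AgNP livers 1 of 17 was above 0, 6 reached that p, all lower, against 8.72% of all genes, and the median was -0.25. Without PVP-AgNP replicates 1 and 4 that comparison gave 3 lower, where 3.86% of all genes were, 4 of 17 above 0 and a median of -0.094. With the quality area in the model it gave 3 lower, where 5.25% of all genes were, and a median of -0.13. Sesn2 itself was at 0.10 with either coating. Without PVP-AgNP replicates 1 and 4, the arrays of lowest quality area, 2 of 17 reached that p lower against control, where 5.58% of all genes did, 2 of 17 were above 0 and the median was -0.15. With the quality area in the model 2 of 17 reached it lower, with a median of -0.18, where 6.67% of all genes did. Without control replicate 1, 7 of 17 did, with a median of -0.34, where 10.9% of all genes did. With arrays centred on the median 10 of 17 did, with a median of -0.44, where 17.5% of all genes did and their median was -0.10.

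Without PVP-AgNP replicates 1 and 4, which leaves 2 PVP-AgNP mice, an unadjusted p under 0.05 was reached against control by 9.7% of all genes in place of 20.3%. It was then reached by 0 of 12 genes of p53 and its regulators, whose median was 0.073, and by 0 of 10 kinases downstream of the GADD45 proteins. It was reached by 1 of 21 cell division genes, 1 of 17 BCL2 family genes and 1 of 12 CDK inhibitors and BTG family genes. The counts were the same as with all arrays for the other p53 targets, 5 of 31, the immediate early genes, 2 of 15, and the integrated stress response genes, 1 of 13. With each array centred on its median, the median of all genes was -0.10 with PVP-AgNP, and 4.17% of all genes reached that p higher and 17.5% lower, against 8.05% and 12.3% without centring.

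The genes whose pattern was most like that of Cdkn1a were sought by Pearson's correlation of log2 signal over the 12 mice after the mean of each sex was taken off, as a description of mice that share their groups. The 5 closest were Lpin1 (r = 0.955), a phosphatidate phosphatase, Nova2 (0.954), a splicing factor, Foxa3 (0.954), a hepatic forkhead factor, Eif3s6-ps1 (0.945), a pseudogene whose signal may include its parent gene, and St3gal5 (0.940), a ganglioside synthase. Lpin1 was 15.17 ± 0.74 in cit-AgNP, 11.86 ± 1.87 in PVP-AgNP and 11.60 ± 0.99 in control livers (SD, n = 4 each). Among the members, Gadd45b followed Cdkn1a most closely (r = 0.677), then Mdm2 (0.592), Sesn2 (0.578), Ccng1 (0.481) and Trp53inp1 (0.349). PVP-AgNP replicate 1, the array of lowest quality area, was the lowest of the 12 mice in both Cdkn1a (4.67) and Mdm2 (7.02). That mouse was also the highest in Gadd45a (6.44), Gadd45g (10.47) and Btg2 (10.98). Correlations without that mouse were not computed. Gadd45a (-0.88) ran the other way, while Gadd45g (-0.15) and Btg2 (-0.26) had only weak negative values.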

How the data were processed

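Total RNA from 12 livers, extracted with Trizol, was labelled for Affymetrix whole-transcript arrays, per the labels' protocols. The deposited table held the authors' log2 signal values for 72688 probe sets, from 1.73 to a ceiling of 19.93, which no member reached. RMA and Transcriptome Analysis Console 4.0.1.36 are named in the submitters' processing notes, without role or order. The genome build behind the signals is not given in the sources used here, and scanner intensities were not used.

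In the platform's table, 30604 probe sets named 1 symbol, 2146 several and 39938 none. Symbols of 1121 were updated through RefSeq (GRCm38.p6). The probe set of highest mean stood for each of 30062 genes, and the 19987 above the 40th percentile of all probe set means, a log2 signal of 3.93, were tested. Array quality was the area under the curve separating 1324 exon from 5222 intron control probe sets.

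Tests used limma 3.58.1 in R 4.3.3 with a mean-variance trend, group and sex as terms and all 12 arrays in 1 fit; 6 means of group by sex gave the effects within and between the sexes. The tests were two-sided, the Benjamini-Hochberg adjustment ran over the 19987 genes, and an adjusted p under 0.05 passed. The labels give 1 mouse per array. The number of arrays limits the precision. The script was tested on simulated data.

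Replicate numbers did not pair the mice: deviations of same-numbered mice correlated from -0.44 to 0.23. The members and lists were chosen with earlier results of these data known. From each list the 3 genes of smallest p in each comparison with control are named where none passed; Egr1, Klf6, Vldlr and Ccne1 in the sex comparison were chosen after seeing their values. The alternatives changed the filter, scaling, variance model, sex term, samples fitted, probe set rule, array weighting, replicate block and the arrays included.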

Additional observations from a re-analysis of the deposited data

Results flagged for a closer look

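Within the groups of 4 mice, 1 value that stood apart was looked for in each of the 9 genes and 3 groups, 27 cases in all, by the gap to its nearest neighbour over the whole range. Chance alone sets apart about 1 in 20 such groups. Gadd45g in control replicate 1 had a log2 signal of 5.59, with a gap of 0.952 of the range, against 8.43 to 8.57 in the other 3 control mice. Sesn2 in PVP-AgNP replicate 2 had a log2 signal of 5.35, with a gap of 0.837 of the range, against 5.14 to 5.17 in the other 3 PVP-AgNP mice.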

How the results depend on the processing

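In the comparisons with control and between coatings, 0 of 9 members passed under every alternative run, and in females against males 2 did. That count was 0 with the replicate number as a block (replicate block), 1 with no filter on low signal, 1 with arrays centred on the median, and 0 to 3 with 1 mouse left out. Under the replicate block Gadd45b was at 0.49 with adjusted p = 0.461 and Trp53inp1 had adjusted p = 0.173 in limma. All mice of replicate 2 were female and all of replicate 3 male, so the block overlaps the sex term and leaves less to estimate it. The SE of Gadd45b was 0.18 with the block and 0.11 without it. The numbers do not pair the mice. The block changed no other call of a member.

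Signs turned only for differences that had not passed. For PVP-AgNP minus control, Gadd45a was -0.091 with centred arrays, -0.029 after quantile normalization, -0.11 with array weights, -0.15 with the quality area in the model and -0.043 without PVP-AgNP replicates 1 and 4, the 2 arrays of lowest area, an alternative chosen after seeing the data, as were those for the lists. Gadd45b was -0.067 centred and -0.0095 quantile normalized, Cdkn1a 0.34 with weights, 0.32 with the area and 0.20 without the 2 arrays, and Btg2 -0.069 with the area. For PVP-AgNP minus cit-AgNP, Mdm2 was 0.025 with weights and 0.026 with the area, Sesn2 0.019, 0.060 and 0.046 with weights, area and without the 2 arrays, and Btg2 -0.21 with the area and -0.039 without the 2. For the effect in females minus that in males, Cdkn1a was 0.052 for cit-AgNP with centred arrays, and without the 2 arrays Cdkn1a was 0.043, Ccng1 0.41 and Gadd45b 0.12 for PVP-AgNP.

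With 1 mouse left out, PVP-AgNP minus control ran from -0.23 to 0.36 for Cdkn1a, -0.13 to 0.11 for Gadd45a and -0.048 to 0.13 for Gadd45b, and cit-AgNP minus control from -0.11 to 0.54 for Btg2. PVP-AgNP minus cit-AgNP ran from -0.16 to 0.045 for Mdm2, -0.045 to 0.54 for Btg2, -0.033 to 0.046 for Sesn2 and -0.092 to 0.53 for Trp53inp1. The sex difference in the effect of cit-AgNP ran from -0.33 to 0.29 for Cdkn1a, -0.18 to 0.027 for Mdm2, -0.062 to 0.33 for Gadd45b and -2.20 to 0.78 for Gadd45g. That of PVP-AgNP ran from -0.76 to 0.25 for Ccng1, -0.99 to 0.13 for Btg2, -0.38 to 0.0035 for Gadd45b and -2.25 to 0.74 for Gadd45g. With 4 mice per group and 2 per sex within it, small differences could not be resolved.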

Other observations

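The sex comparison also reached 4 genes of the neighbouring lists, named after their values were seen. The immediate early factor Egr1 was 8.71 ± 0.46 in females and 7.12 ± 0.68 in males (SD, n = 6 each), and rose by 1.58 ± 0.30 (SE) in females, with adjusted p = 0.0243 in limma. Klf6, another immediate early factor, rose by 0.76 ± 0.15 (SE) in females, with adjusted p = 0.0312. The lipoprotein receptor gene Vldlr rose by 1.05 ± 0.21 (SE), with adjusted p = 0.0322. It was 6.16 ± 0.64 in females and 5.11 ± 0.13 in males (SD, n = 6 each), so its spread was unequal. Cyclin E1, Ccne1, fell by 0.33 ± 0.059 (SE) in females, with adjusted p = 0.0197. Its mean log2 signal was 4.37 in females and 4.70 in males, near the filter on low signal. With a stricter filter on low signal Ccne1 was not tested. How these 4 calls hold with 1 mouse left out is not given here. Of 15 tested immediate early genes all 15 were above 0 and 9 reached an unadjusted p under 0.05 higher in females, with a median of 0.71, against 6.36% and -0.024 over all genes.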
